A study of Canis lupus familiaris with 4 samples.

Results

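The subject is a set of strong ATAC-seq peaks with similar mean accessibility in mature and in freshly reseeded MDCKII cells. These cells are a wild-type epithelial line from canine kidney that forms polarised monolayers. The set holds 849 of 59081 peaks (1.44%), all on the 38 numbered chromosomes. In ATAC-seq the transposase Tn5 cuts and tags open DNA, so that the count in a peak follows its accessibility. The mature state is represented by 2 libraries, A and B, of monolayers kept for 7 d, and the reseeded state by 2 more, again A and B, of equally old monolayers taken off and plated anew for 2 h. No other treatment, allele or clone is named in the labels, and all 4 libraries were of the same line and culture type.

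The measured values of both states chose the set. Each peak's count was divided by its library's total and given per 1000000 counts (CPM). A peak entered when its mean over the 2 mature libraries and its mean over the 2 reseeded libraries were both at least 35 CPM, and the larger of the means exceeded the smaller by at most 15%. The levels of these peaks and their ratios between the states are therefore given as a description, without a test. Peaks of the set are called equal below, which means within the bounds of this rule and not free of any difference. Only peaks on the numbered chromosomes could enter, so the absence of chromosome X from the set was fixed by the rule. Positions on the numbered chromosomes, neighbouring peaks and the difference between libraries A and B of a state were not part of the choice.

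Open chromatin marks promoters, enhancers and sites bound by insulator proteins. As background, promoters of broadly expressed genes and sites of the insulator protein CTCF tend to stay open across cell states, whereas distal enhancers more often open and close with signals and cell shape. No genome or annotation of the build CanFam3.1 was used here, so the peaks are given by position and not by gene, and neither these classes nor the promoters of epithelial marker genes were examined. Each peak was 501 bp wide, and positions count from 1.

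Total counts in peaks ran from 6253706 to 24015663 per library, and the reseeded libraries held 73.2% of all counts. Nothing in the labels says that A and B came from separate cultures, so the spread between them may be technical. A leading number in the sample names is shared within a state and differs between the states, and a batch it might stand for and reseeding cannot be told apart. Counts of 3 correspond to 0.125 to 0.48 CPM, far below every value in the set. Intervals below are 95% Clopper-Pearson intervals on counts and cover counting error only, not differences between libraries. The labels name no molecular identifiers, so copies of a fragment may be among the counts.

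Strong peaks that kept their mean level within the bounds were a minority of the strong peaks. On the numbered chromosomes 6141 peaks reached 35 CPM in mature cells and 5208 in reseeded cells, and 3051 did so in both. Of these 3051, 849 (27.8%) lay within the ratio bounds, 1833 lay below them and 369 above them, with a median ratio of reseeded to mature of 0.822. The share within the bounds was 48.2% (375 of 778) where the mean of both states was 35 to 45 CPM. It was 23.0% (309 of 1342) at 45 to 60 CPM, 18.5% (124 of 669) at 60 to 80 CPM and 16.6% (36 of 217) at 80 to 120 CPM. Of the 45 peaks at 120 CPM or above, 5 (11.1%) were in the set and 39 lay below the bounds. Near 35 CPM the minimum itself removes peaks with large ratios, so the high share in the lowest band is in part fixed by the rule.

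**Figure D1:**
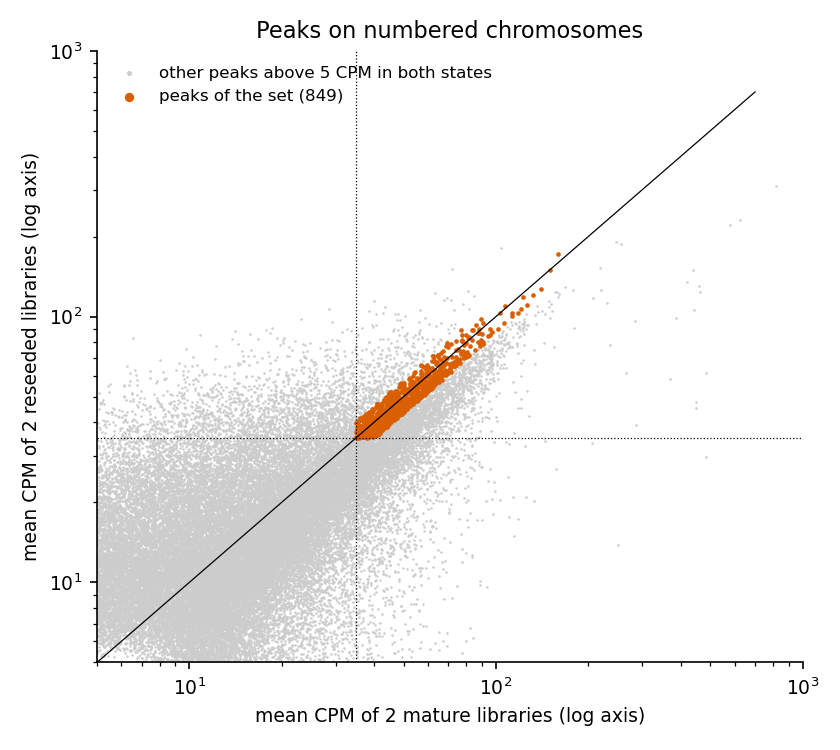
Mean CPM in the 2 mature libraries (horizontal, log axis) against mean CPM in the 2 reseeded libraries (vertical, log axis) for peaks on numbered chromosomes above 5 CPM in both. Orange points are the 849 peaks of the set, the solid line marks equal values and dotted lines mark 35 CPM. At the strong end most grey points lie below the line of equal values.

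Within the set, accessibility was spread over a narrow range with a few strong peaks. In mature library A the values ran from 31.6 to 163 CPM with a median of 48.4, and in mature library B from 30.1 to 156 CPM with a median of 46.1. In reseeded library A they ran from 32.4 to 169 CPM with a median of 46.3, and in reseeded library B from 33.3 to 175 CPM with a median of 46.0. The lowest values fall under 35 because the rule applied to means: 12, 40, 16 and 17 peaks of the set were under 35 CPM in mature A, mature B, reseeded A and reseeded B. For comparison, the median over all peaks of the numbered chromosomes was 12.1 to 13.0 CPM. The set took 4.49% and 4.26% of the counts of mature A and B and 4.26% of those of each reseeded library. The median peak of the set ranked 3137 and 3174 among all peaks in the mature libraries and 2309 and 2312 in the reseeded libraries, so an equal CPM was a higher rank after reseeding.

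The ratio leaned below 1 within the bounds, as it did over all peaks strong in both states (median 0.822). The rule used this ratio, and nothing is read from the lean. The median ratio was 0.969, with 540 peaks below 1 and 309 above. Counting error alone gave a typical 95% interval from 0.883 to 1.05 (medians of the lower and upper limits of pooled counts). The interval lay wholly within the bounds at 329 peaks and held 1 at 507. Taken from the A libraries alone the ratio was within the bounds at 671 peaks, from the B libraries alone at 753, and from each of them at 576. The ratio ranged from 0.77 to 1.213 in the A libraries (median 0.945) and from 0.81 to 1.37 in the B libraries (median 0.999).

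Equality also depended on how libraries were scaled. The edgeR fit over all peaks used trimmed-mean (TMM) factors, and its log2 folds were lower by 0.05 than log2 ratios of plain CPM at these peaks (medians). All 849 peaks were tested, with TMM log2 folds from -0.26 to 0.17 and a median of -0.09, against a median of -0.0086 over all tested peaks. At an adjusted p under 0.05 in edgeR's quasi-likelihood test, 276 of the 849 were called (32.5%), 6 higher and 270 lower, and 0 by at least 2-fold. Over all 59076 tested peaks 84.1% were called, 42.3% higher and 41.8% lower. The mature and the reseeded libraries did not overlap in CPM at 476 of the 849 (56.1%), against 91.1% of the peaks on numbered chromosomes. The rule used this contrast, and nothing is read from these counts. With TMM-scaled CPM in the rule, 734 peaks qualified, of which 689 were in the set.

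The strongest peak of the set was on chromosome 9 from 19870609 to 19871109. It had 163 and 156 CPM in mature A and B and 169 and 175 CPM in reseeded A and B. Both reseeded values stood above both mature values, and the ratio of the means was 1.078 (counting interval of the pooled counts 1.028 to 1.128). The second, on chromosome 8 from 13423686 to 13424186, had 153.5 and 146.5 CPM in the mature and 144.5 and 156.0 CPM in the reseeded libraries. Here the reseeded values enclosed the mature ones, and the means were 150.01 ± 5.0 and 150.24 ± 8.12 CPM (SD, n = 2 each).

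The third, on chromosome 26 from 17913674 to 17914174, had 142.6 and 137.4 CPM in mature A and B and 126.8 and 127.7 CPM in reseeded A and B. Its groups did not overlap, with a ratio of 0.909 (0.862 to 0.955). A pair on chromosome 9 at 15.01 kb from each other came next. The peak from 33237412 to 33237912 had 130.4 and 133.8 CPM in mature and 117.8 and 124.0 CPM in reseeded cells, both reseeded values below both mature ones. The peak from 33252422 to 33252922 had 124.0 and 121.5 CPM in mature and 114.9 and 122.0 CPM in reseeded cells, where the groups overlapped. The sixth, on chromosome 17 from 48673364 to 48673864, had 133.5 and 119.4 CPM in mature and 108.8 and 112.3 CPM in reseeded cells, and its ratio of 0.874 lay close to the lower bound.

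All 6 had another peak close by, at 0.511 to 1.01 kb between midpoints. At 5 of the 6 that neighbour had the larger fitted fold in either direction. The rule kept the folds of the 6 small, so this count is largely fixed by it and nothing is read from it. Beside the strongest peak, the other peak had 40.9 CPM before and 24.8 CPM after reseeding, a log2 fold of -0.76. Beside the second it had 22.7 and 13.0 CPM, a log2 fold of -0.83, and beside the third 10.2 and 5.5 CPM, a log2 fold of -0.94. Beside the sixth it had 14.2 and 16.3 CPM, a log2 fold of 0.16. Peaks this close may be parts of a single accessible site that the fixed width of 501 bp divides.

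**Figure D2:**
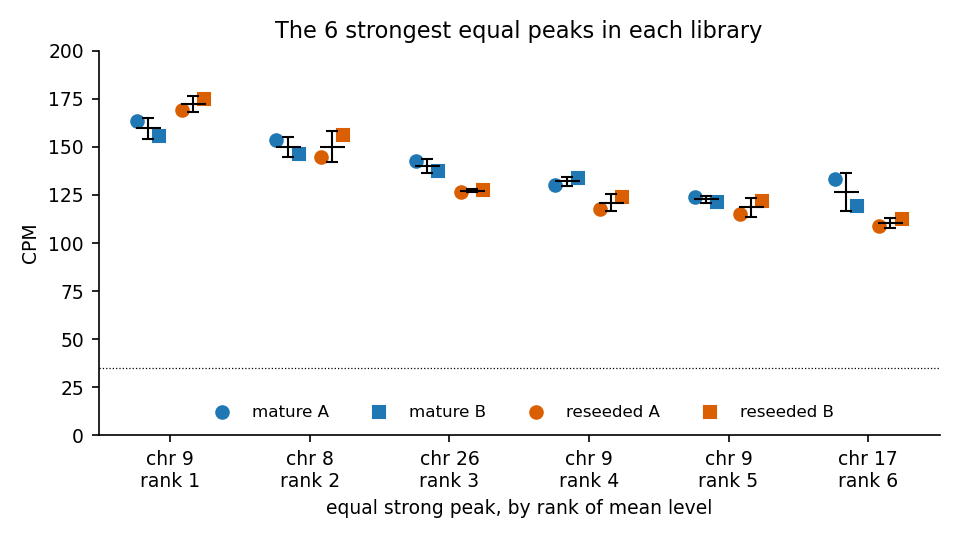
CPM of the 6 strongest peaks of the set in each library, with mature libraries in blue, reseeded in orange, circles for A and squares for B. Black bars are the mean ± SD of each pair of libraries and the dotted line marks 35 CPM; the values run from 108.8 to 175 CPM.

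The 4 peaks nearest to a ratio of 1 among the 213 strongest of the set had close values in the 4 libraries. On chromosome 9 from 32388030 to 32388530 the 4 values were 75.1, 75.5, 75.3 and 75.5 CPM in mature A, mature B, reseeded A and reseeded B. On chromosome 9 from 52962719 to 52963219 they were 61.9, 64.0, 61.8 and 63.9 CPM, so that the B libraries stood above the A libraries in both states. On chromosome 12 from 11166692 to 11167192 they were 58.6, 54.4, 56.2 and 56.5 CPM. These peaks were picked for their ratio, and the counting intervals of the 3 ratios were 0.936 to 1.074, 0.931 to 1.083 and 0.916 to 1.074. The peak on chromosome 8 described above, at a ratio of 1.002, was the nearest to 1 of the 4, with a wider spread between its libraries.

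Peaks on either side of each edge of the rule were close in value. At the mature minimum, the peak on chromosome 2 from 36956831 was inside with means of 35.01 CPM before and 35.3 CPM after reseeding. A peak on chromosome 10 from 28564308 was just outside, with 34.8 and 35.2 CPM in mature A and B. At the reseeded minimum, chromosome 31 from 37503739 was inside with 35.05 CPM and chromosome 6 from 31246785 outside with 34.9 CPM. At the lower ratio bound, chromosome 14 from 40780405 was inside at 0.87 and chromosome 30 from 7963305 outside at 0.869. At the upper bound, chromosome 11 from 22628776 and chromosome 22 from 58207314 had ratios of 1.1497 and 1.1501, the first inside and the second outside.

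The libraries of a state agreed closely at these peaks, a measure the rule did not use, and as closely at strong peaks outside the bounds. The log2 ratio of library B to library A had a median of -0.08 in mature cells, with 5th and 95th percentiles of -0.27 and 0.13. Mature B was the lower at 611 of 849 peaks (72.0%), against 76.3% of strong peaks outside the bounds and 45.2% of all peaks. In reseeded cells the median was -0.0008, with percentiles of -0.12 and 0.11, and B was the lower at 429. The SD of the ratio was 0.127 in mature and 0.0700 in reseeded cells, against 0.109 and 0.0668 from counting error alone. At the 2202 peaks that were strong in both states but outside the ratio bounds, the medians were -0.08 and -0.01 and the SDs 0.116 and 0.0703. At 1352 strong peaks at least 2-fold higher after reseeding (reseeded mean of at least 35 CPM) the mature median was 0.09, and at 1061 strong peaks at least 2-fold lower (mature mean of at least 35 CPM) it was -0.05. The mature median was thus the same to 2 decimals inside and outside the bounds for peaks strong in both states. The median ratio of reseeded to mature was 0.945 in the A libraries and 0.999 in the B libraries.

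The largest disagreements between mature libraries were within a fold of 1.5. On chromosome 17 from 21193337 to 21193837 mature A had 69.8 and mature B 49.7 CPM, a log2 ratio of -0.49 (-0.69 to -0.29), while the reseeded libraries had 65.3 and 66.1 CPM. On chromosome 35 from 25015354 to 25015854 the mature values were 41.8 and 30.5 CPM and the reseeded values 39.3 and 38.4 CPM. On chromosome 21 from 33978941 to 33979441 they were 67.9 and 49.9 CPM against 56.1 and 58.7 CPM. In the other direction, chromosome 26 from 18089142 to 18089642 had 31.6 and 39.8 CPM in mature A and B, a log2 ratio of 0.33 (0.08 to 0.58). Chromosome 5 from 56194833 and chromosome 9 from 18406618 followed with 0.28 and 0.27. At 5 of these 6 peaks the mature libraries lay on both sides of the reseeded ones, and the mean, not each library, was equal.

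Equal strong peaks occurred on all 38 numbered chromosomes and most often on chromosome 17. Chromosomes 17, 9 and 20 held 71, 66 and 51 of them, which is 22.1% of the set on chromosomes with 15.2% of the peaks. Chromosome 17 had 27.1 per 1000 peaks against 14.7 over all numbered chromosomes, and chromosome 20 had 19.8, chromosome 10 19.4 and chromosome 9 18.5. The fewest were on chromosome 25 with 5.88 (8 peaks), chromosome 19 with 6.94 and chromosome 32 with 6.99 (4 peaks each). Peaks of at least 35 CPM in both states followed much of this order, with 100.3 per 1000 on chromosome 17 and 52.9 over all. Of those, the share within the ratio bounds was 27.0% on chromosome 17, near the 27.8% overall. Chromosome 17 therefore stood apart in strong peaks and not in the share of them that was equal. That share was 62.5% on chromosome 24 (10 of 16) and 15.6% on chromosome 8 (17 of 109), where small numbers limit it.

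On chromosome 17 the equal peaks were spread along the whole length. Bins of 10 Mb from its start held 6, 8, 12, 21, 8, 11 and 5 of them. Among 202 bins of 10 Mb with at least 100 peaks the median was 13.8 per 1000 peaks, and the 7 bins of chromosome 17 had 19.6 to 37.2. Its bin from 30 to 40 Mb held 21, the most of any bin. The median level of all its peaks was 13.7 CPM in mature and 14.7 CPM in reseeded cells, against 12.3 and 13.0 CPM over the numbered chromosomes. Counts were not corrected for the number of chromosome copies in this line, and the part of copy number in these levels was not tested.

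**Figure D3:**
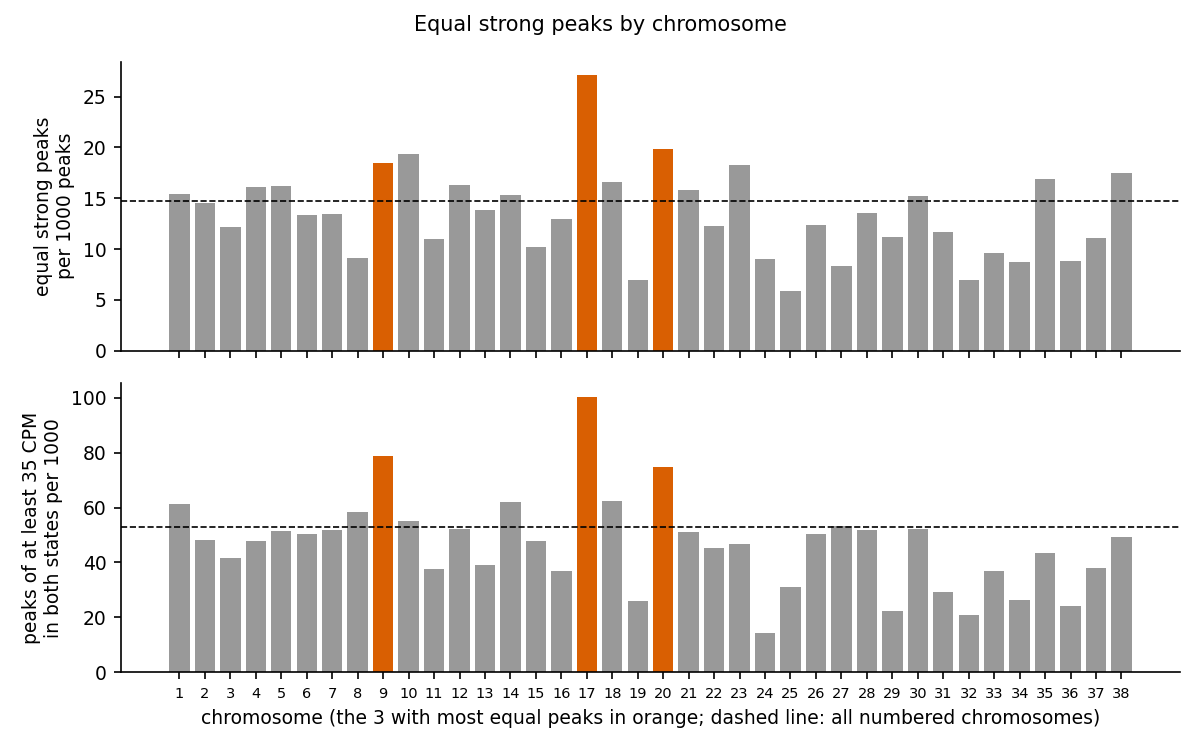
Equal strong peaks per 1000 peaks (upper bars) and peaks of at least 35 CPM in both states per 1000 peaks (lower bars) by chromosome. The dashed lines mark 14.7 and 52.9, the values over all numbered chromosomes, and chromosome 17 stands highest in both, at 27.1 and 100.3.

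The set lay in regions richer in peaks than the average peak. A median of 57 other peaks lay within 500 kb either side (quartiles 37 and 79), against 46 around all peaks on numbered chromosomes (28 and 68). The median was 59 around peaks strong in both states but outside the bounds. It was 60 around strong peaks that were at least 2-fold lower and 45 around those with a rise of that size. By deciles of this density, equal strong peaks made up 8.84 per 1000 peaks in the sparsest decile (51 peaks) and 22.7 in the densest (131 peaks). Peaks strong in both states went from 29.3 to 91.5 per 1000. The share of them that was equal stayed between 24.8% and 31.1% in all 10 deciles, with 30.2% in the sparsest and 24.8% in the densest.

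The equal peaks lay closer to other peaks than the average peak did. The nearest other peak was at a median of 2.47 kb, against 3.67 kb over all peaks. It was within 5 kb at 560 of the 849 (66.0%, against 57.2%), and 289 had none that near. Strong peaks outside the bounds lay closer still, with a median of 1.72 kb and 69.9% within 5 kb. At strong peaks at least 2-fold lower these were 1.51 kb and 77.3%, and at those at least 2-fold higher 3.87 kb and 56.1%. Another peak of the set lay within 5 kb of 22 of the 849. Such counts depend on the size of a set, here 1.47% of the peaks on numbered chromosomes, and nothing is read from them. Peaks near another of their own set numbered 200 of 2202 outside the bounds, 67 of 1352 at least 2-fold higher and 215 of 1061 at least 2-fold lower. With successive midpoints at most 10 kb apart, 39 of the equal peaks formed 18 pairs and 1 trio, and 810 were single. The trio spanned 10.8 kb of chromosome 13 from 37470425 to 37481202. Its peaks had 38.4 to 47.0, 64.5 to 75.9 and 48.6 to 54.8 CPM over the 4 libraries, with ratios of 1.103, 1.104 and 1.028. Of the 6 other peaks between them 2 were at least 2-fold lower, and their log2 folds ran from -3.29 to -0.52. The strongest pair was on chromosome 9, where the set's strongest peak and a peak from 19875281 to 19875781 (84.1, 83.0, 83.7 and 95 CPM) lay within 5.17 kb. The 2 other peaks between them had log2 folds of -0.76 and 2.29.

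Isolated peaks were rare in this set and in the other sets of strong peaks. More than 50 kb from any other peak lay 22 of 849 equal peaks (2.59%), against 4.38% of all peaks. The share was 2.04% at strong peaks outside the bounds, 1.7% at those at least 2-fold lower and 3.25% at those at least 2-fold higher. The most isolated was on chromosome 29 from 24960576 to 24961076, 1169 kb from the nearest peak. It had 62.1 and 47.2 CPM in mature A and B and 48.1 and 48.3 CPM in the reseeded libraries, so mature A alone stood apart. On chromosome 5 from 20481732 to 20482232, 197 kb from the nearest peak, the values were 36.9, 34.5, 38.5 and 39.3 CPM. On chromosome 21 from 26991884 to 26992384, 178 kb away, they were 46.0, 41.3, 43.1 and 44.2 CPM.

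Around the equal peaks, the share of other peaks that differed between the states was near that of all peaks. Within 5 kb lay 1090 other peaks, all tested, and by edgeR's quasi-likelihood test 919 of them (84.3%) were called, against 84.1% of all tested peaks. Their direction leaned to loss: 324 were called higher (29.7%, against 42.3% of all) and 595 lower (54.6%, against 41.8%). At least 2-fold, 155 were higher (14.2%, against 26.9%) and 224 lower (20.6%, against 15.0%). At least 4-fold, 47 were higher (4.31%, against 10.1%) and 99 lower (9.08%, against 6.04%). Their median log2 fold was -0.31. Together they took 2.38% and 2.42% of the counts of mature A and B and 2.04% and 2.05% of those of reseeded A and B. With 2 libraries in each state an exact 2-sided permutation test of that share cannot go below p = 0.333.

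The lean to loss was shared with strong peaks outside the bounds and with those at least 2-fold lower, and not with those at least 2-fold higher. Around peaks strong in both states but outside the bounds, 11.1% of other peaks within 5 kb were higher by 2-fold or more and 24.0% were lower by as much. Around strong peaks at least 2-fold higher these shares were 32.2% and 11.5%, and around strong peaks at least 2-fold lower 7.09% and 34.8%. The equal peaks thus fell between those that rose and those that fell. Differences between these sets were not tested, and the sets share neighbours. The neighbours of equal peaks were stronger than the typical peak, with median means of 16.4 CPM in mature and 14.0 CPM in reseeded cells, against 12.3 and 12.9 CPM over all peaks. The part of their level in the lean was not tested.

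**Figure D4:**
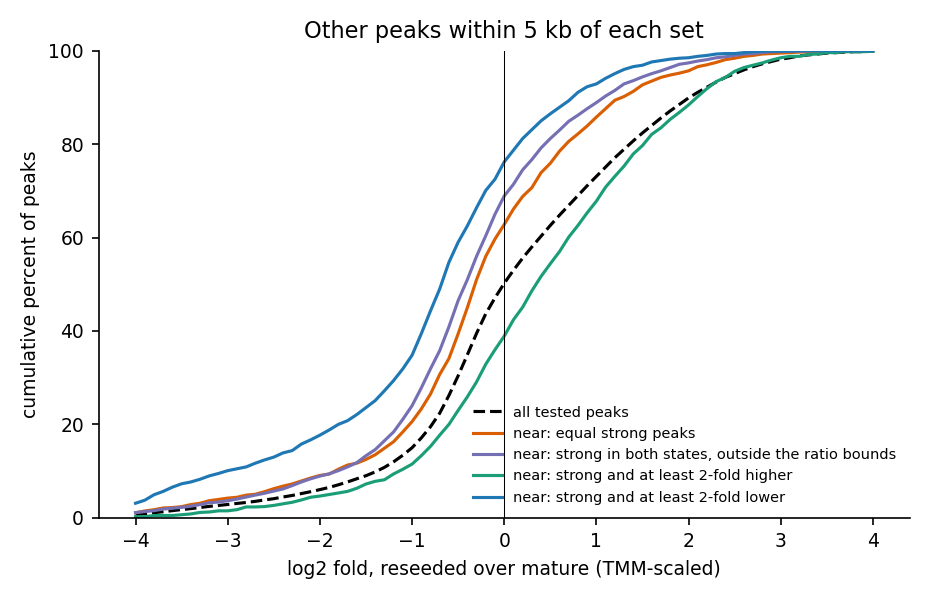
Cumulative percent of other peaks within 5 kb of each set of strong peaks (solid lines) and of all tested peaks (dashed), by log2 fold of reseeded over mature. The line for equal peaks (orange) lies left of the dashed line, with a median of -0.31 against -0.0086, and between the lines for strong peaks that were lower (blue) and higher (green).

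Changes of at least 2-fold made up the smallest share of other peaks in the first 1 kb around an equal peak, a difference that was not tested. Up to 1 kb from its midpoint, 21.7% of 267 other peaks were at least 2-fold different, 21 higher and 37 lower. The share was 36.9% of 263 peaks from 1 to 2 kb, 39.7% of 575 from 2 to 5 kb, 38.1% of 2294 from 5 to 20 kb and 39.2% of 3709 from 20 to 50 kb. Around strong peaks outside the bounds it was likewise lowest up to 1 kb, at 26.3%, and ran from 33.8% to 41.8% farther out. Around strong peaks at least 2-fold higher or lower it was highest up to 1 kb, at 48.6% and 48.2%. Within 5 kb, 273 of the 560 equal peaks with a neighbour (48.8%) had one that was at least 2-fold different. A higher one lay near 135 and a lower one near 155, and 17 had both. Counted by neighbour, 34.8% were at least 2-fold different, against 41.9% of all tested peaks. The 48.8% is therefore not read as a trait of equal peaks.

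An equal peak could stand next to a peak that opened from a low level. The peaks with the most extreme nearest neighbours were picked by those neighbours' folds. On chromosome 26, 2.22 kb from the equal peak from 18089142 (31.6, 39.8, 37.6 and 38 CPM), the peak from 18091365 to 18091865 went from 2.85 and 2.56 CPM to 39.9 and 39.6 CPM. Its log2 fold was 3.82 (SE 0.15, adjusted p = 1.91e-21), and after reseeding both peaks had about the same level. On chromosome 7, 4.66 kb from the equal peak from 16538603 to 16539103 (40.8, 39.3, 42.2 and 40.9 CPM), the peak from 16543266 went from 2.17 and 2.24 CPM to 22.0 and 20.7 CPM, and its log2 fold was 3.23 (SE 0.18, adjusted p = 3.07e-17).

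On chromosome 9 the neighbourhood of a strong equal peak changed in both directions. At 0.855 kb from the peak at 33252422, the peak from 33251567 to 33252067 went from 7.42 and 8.63 CPM to 62.7 and 74.7 CPM (log2 fold 3.08, SE 0.12, adjusted p = 3.04e-21). Of the 15 other peaks within 20 kb, the equal peak at 33237412 among them, 6 had fitted folds of at least 2 upward and 3 of at least 2 downward. The log2 folds ran from 3.26, at 11.98 kb on one side, to -2.58, at 7.72 kb on the same side.

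Other equal peaks stood next to a peak that was lost. On chromosome 38, the peak from 21099535 to 21100035 had 48.2 and 52.4 CPM in mature A and B and 52.7 and 44.2 CPM in reseeded A and B, with a ratio of 0.963. Its nearest neighbour, from 21098396 to 21098896 at 1.14 kb, fell from 34.9 and 46.7 CPM to 1.89 and 1.96 CPM (log2 fold -4.41, SE 0.15, adjusted p = 1.67e-22). Within 10 kb, 13 of 18 other peaks were at least 4-fold lower, with median means of 44.4 CPM in mature and 3.29 CPM in reseeded cells. On the same stretch 3 peaks under the minimum had log2 folds near 0. Their means were 32.7 and 31.9 CPM at 10.01 kb on one side, 29.5 and 27.3 CPM at 7.19 kb on that side, and 32.4 and 30.8 CPM at 11.13 kb on the other.

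Near the start of chromosome 38, the equal peak from 255337 to 255837 (58.3, 52.1, 46.3 and 50.3 CPM) had a single other peak within 20 kb. That peak, from 254384 to 254884, fell from 12.6 and 16.2 CPM to 0.651 and 0.666 CPM (log2 fold -4.45, SE 0.29, adjusted p = 1.78e-15). On chromosome 12, the equal peak from 3197441 to 3197941 (43.0, 41.4, 46.1 and 45.3 CPM) lay 2.74 kb from a peak at 3194705 that fell from 29.3 and 28.9 CPM to 1.48 and 1.75 CPM (log2 fold -4.19, SE 0.16, adjusted p = 6.81e-22). At the equal peak on chromosome 12 both reseeded values exceeded both mature values. At the equal peak from 255337 both lay below both mature values, with a ratio of 0.874 (0.805 to 0.947).

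**Figure D5:**
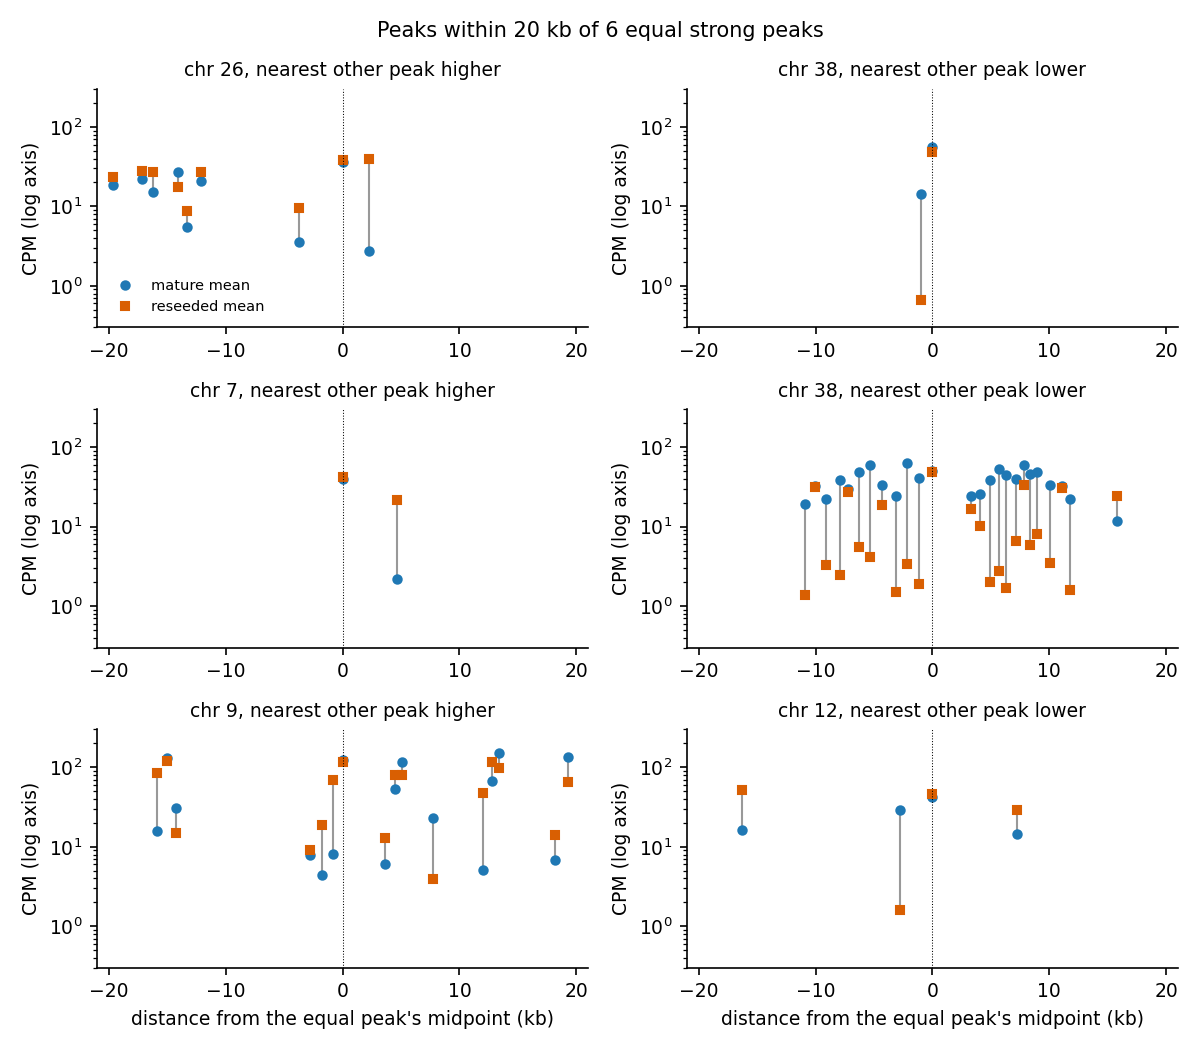
Mean CPM (log axis) in mature (blue) and reseeded (orange) cells of every peak within 20 kb of 6 equal peaks, by distance of midpoints; grey lines join the states. The equal peak sits at 0 kb in each panel, and the right middle panel (chromosome 38) shows 17 of 24 other peaks with fitted folds of at least 2 downward.

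Equal peaks with at least 5 other peaks within 10 kb that were at least 4-fold lower numbered 6 of 849, on 4 chromosomes, a count made after the values were seen. None of the 849 had 5 such neighbours at least 4-fold higher, and neither did any of the other 3 sets. Surroundings of the lost kind were found at 30 of 2202 strong peaks outside the bounds, at 71 of 1061 that were at least 2-fold lower and at 0 of 1352 that were at least 2-fold higher. Besides the peak on chromosome 38, the 6 comprised chromosome 9 from 10355722 and from 35246436, chromosome 15 from 480603, and chromosome 18 from 49129890 and from 49149164. On chromosome 15, where 11 of 16 other peaks were at least 4-fold lower, the equal peak had 56.5, 57.6, 56.1 and 54.4 CPM. On chromosome 9 at 35246436 it had 41.2, 40.5, 41.3 and 40.8 CPM while its lost neighbours went from a median of 15.9 to 1.41 CPM.

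In these surroundings the mature libraries stood farther apart at the lost peaks than at the equal ones. The median log2 ratio of mature B to A at the lost neighbours was 0.06 on chromosome 15 and 0.46 to 0.60 around the other 5 peaks. At the 6 equal peaks it was -0.03 to 0.17, and in each of the 6 it was below that of the lost neighbours. The median was 0.09 at the equal peaks and 0.48 at the lost neighbours. On chromosome 15 the 2 values were close, 0.06 at the lost neighbours and 0.03 at the equal peak. The lost neighbours were also weaker in mature cells, with medians of 15.1 to 44.4 CPM against 40.8 to 90.6 CPM at the equal peaks. Neither the part of level in the disagreement nor its cause was tested.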

How the data were processed

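ATAC-seq counts of 4 MDCKII libraries, 2 mature and 2 reseeded, were used as the authors deposited them: raw counts in 59081 peaks, not normalized. Reads were processed with Bowtie2 and MACS2 on the build CanFam3.1, per the submitters' processing notes. Not given in the sources used here: versions, settings, duplicate handling, the Tn5 offset, what was counted and how peaks entered the table. Starts were read as counted from 0 and printed counting from 1. CPM is the count over the library's column total, and TMM-scaled values are named as such.

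Peaks passing filterByExpr (59076) were fitted in R 4.3.3 with edgeR 4.0.16 (TMM, quasi-likelihood test, no block, Benjamini-Hochberg over all tested peaks, called at an adjusted p under 0.05). SEs come from the fold and its F statistic. On simulated counts for 59081 peaks the fit called 50 of 50 peaks simulated with a 2-fold rise and 37 of 50 with a 1.5-fold rise. It called 3 of 50 with a rise of 15%, and 4 unchanged peaks. Only a small part of the simulated peaks was changed and all shared a single dispersion (0.001089), whereas 84.1% of the real peaks were called. The simulated shares therefore do not give the power of the fit on the real counts. Distances are between midpoints. DESeq2 1.42.0, other scalings, filters, distances and rule limits, a replicate block and each library left out were alternatives.

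The set and its comparison sets were chosen with earlier results of these data known. The comparison with strong peaks outside the bounds, the bins of 10 Mb and the counts of crowded lost surroundings were added later. Named peaks followed a rule: the 6 strongest; the 4 with ratios nearest 1 among the 213 strongest; those at each edge; the 2 largest chains; the 3 highest and lowest by mature B over A and by fold of the nearest peak within 5 kb; and the 3 most isolated. Motifs, GC content and gene classes were not run, as no genome of the build was used.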

Additional observations from a re-analysis of the deposited data

How the results depend on the processing

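The size of the set followed its limits. With a minimum of 25 CPM 1849 peaks qualified and with 50 CPM 292, and with means allowed to differ by at most 10% 557 and by at most 25% 1417. Including chromosome X gave 856. With a library left out 751 to 945 peaks qualified, of which 657 to 786 were in the set. Of 114 alternatives for the counts, shares and medians, the other 110 stayed within 1.5 times the value given or, for the medians of B over A, within 1 SD. Shares of neighbours at least 2-fold higher were 9.47% within 2 kb and 18.1% within 50 kb, and with a library left out 12.1% to 15.4%. Those at least 2-fold lower were 19.7% to 21.7% under every alternative run. The DESeq2 Wald test called 77.3% of neighbours and 77.6% of all peaks. The fit with a replicate block by library letter called 48979 peaks in place of 49688 and 83.9% of neighbours in place of 84.3%. Pairing by letter was not seen: the B minus A differences of the 2 states had an r of 0.0314 across peaks. The 6 neighbours named for their folds kept direction and call in 66 of 66 alternatives, with adjusted p of at most 2.77e-13. Depth limits the set: mature counts carry most of the error of a ratio.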
